A study of Mus musculus with 90 samples.

Results

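The methylation of both DNA strands of single molecules was compared between DKO0 embryonic stem cells (ESCs) at passage 1 (P1) and passage 5 (P5). Every repeat amplicon whose values at both passages could be tied to a labelled sample was taken. This gave 4 of the 5 amplicons with any values tied to a labelled sample, and 8 libraries of 19 (of 90 samples in the series). The amplicons were IAPEz, IAP LTR, L1mdT and MuERVL. The other amplicon, the major satellite mSat, had a DKO0 library tied to a label at P1 only and was not compared. L1mdA, which the labels list at both passages, and B1, whose values have no labelled sample, were not analysed here. DKO0 cells are mouse ESCs of the J1 line with both Dnmt3a and Dnmt3b knocked out. They derive from TKOL cells, a clonal line of the same double knockout that also carries an shRNA against Dnmt1. The shRNA was removed by transient transfection of a Cre recombinase plasmid, after which the cells were passaged once (P1) or 5 times (P5). All 8 libraries thus share the loss of Dnmt3a and Dnmt3b, and the DKO0 cells at both passages descend from 1 clone.

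Dnmt1 is the maintenance methyltransferase. It copies methylation onto the new strand after replication and prefers CpGs that are methylated on the parental strand only. Dnmt3a and Dnmt3b are the enzymes that set most new methylation in ESCs, on CpGs that carry none. A CpG is palindromic, so each one is a dyad of 2 cytosines that face each other. A dyad methylated on both sides is called fully methylated and one methylated on 1 side hemimethylated. Fully methylated dyads leave replication hemimethylated until the new strand is methylated. A new methyl group placed on an unmethylated dyad also makes a hemimethylated one. IAP elements and MuERVL are endogenous retroviruses with long terminal repeats (LTRs), and L1mdT is a subfamily of the LINE-1 retrotransposons. IAP elements are known for heavy methylation in mouse cells.

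In the hairpin assay a linker was ligated across the cut end of a genomic fragment before bisulfite treatment, so that 1 read holds both strands of 1 molecule. The sequences scored are shown because their CpGs are the dyads counted below. Each is a stretch of the mouse genome (mm9) written 5′ to 3′, with the CpGs in capitals. For IAPEz and IAP LTR it is the shortened reference of the study, and for L1mdT and MuERVL the most frequent genomic copy between the primer and the cut site.
IAPEz: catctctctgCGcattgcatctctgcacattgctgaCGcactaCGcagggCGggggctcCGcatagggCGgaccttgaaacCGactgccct
IAP LTR: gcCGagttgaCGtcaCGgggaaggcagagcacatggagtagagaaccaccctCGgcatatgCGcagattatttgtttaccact
L1mdT: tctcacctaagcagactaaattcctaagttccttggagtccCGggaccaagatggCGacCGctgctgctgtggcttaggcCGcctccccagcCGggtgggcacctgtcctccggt
MuERVL: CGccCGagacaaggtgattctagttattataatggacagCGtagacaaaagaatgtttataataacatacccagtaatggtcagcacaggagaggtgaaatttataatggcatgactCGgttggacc
These stretches are 91, 83, 115 and 127 bases long and hold 7, 5, 5 and 4 CpGs. The deposited table scored 7, 5, 5 and 4 CpGs in each read of the respective libraries, states that could not be read included. The L1mdT cut site holds a further CpG at the end of the fragment, which is in lower case and was not counted. The IAPEz stretch matched 1 genomic site exactly, at chr13:77743413-77743503 on the plus strand. The IAP LTR stretch occurred in 103 copies, for example at chr1:16195798-16195880 on the plus strand. The L1mdT stretch stood in 556 copies, among them chr1:14104103-14104217 on the minus strand. The MuERVL stretch stood in 152 copies, among them chr1:10881598-10881724 on the plus strand. The 4 amplicons therefore sample families of dispersed copies and not single loci.

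Depth differed between amplicons more than between passages. IAPEz had 4369 reads at P1 and 3775 at P5, with 30176 and 26058 scored dyads. IAP LTR had 2388 and 3695 reads, with 11595 and 17965 dyads. L1mdT had 3517 and 4441 reads, with 17116 and 21553 dyads. MuERVL was the shallowest, with 1039 and 1240 reads and 4156 and 4960 dyads. There was 1 library for each passage and amplicon, so each test below compares 2 libraries and has no replicate check. Intervals are 95% intervals and cover counting error only, with each dyad taken as independent. A read carries several dyads, and PCR copies of 1 molecule cannot be told from separate molecules here. Intervals on dyads can therefore be too narrow, and p-values on dyads too small.

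At IAPEz, the internal part of the IAP retrovirus, 954 of the 30176 dyads were fully methylated at P1 and 2378 of the 26058 at P5. The share rose from 3.16% (Wilson interval 2.97 to 3.37) to 9.13% (8.78 to 9.48). The increase was 5.96 percentage points (5.56 to 6.37), or 2.89-fold (Fisher's exact test, two-sided, Benjamini-Hochberg adjusted over 16 tests, p = 1.81e-198). Spread evenly over the 4 passages between the libraries, this was 1.49 percentage points per passage (1.39 to 1.59). With equal folds per passage instead, the step grew from 0.959 points at first to 2.12 at last, and 2 time points cannot tell these apart. Dyads methylated on the right side only rose from 1.85% to 3.21% (log2 ratio 0.80, 0.65 to 0.95, Fisher's exact test, adjusted p = 1.36e-24). Dyads methylated on the left side only rose from 1.75% to 2.47% (log2 ratio 0.49, 0.33 to 0.66, Fisher's exact test, adjusted p = 7.19e-09). Counted in reads, with each count divided by the library's mean number of dyads per read, the right side still passed and the left side did not (adjusted p = 0.000339 and 0.0589, Fisher's exact test). Corrected for linker conversion, the log2 ratios of the sides were 3.52 and 4.22, from small corrected shares at P1. Unmethylated dyads fell from 93.2% to 85.2%. The mean methylation over both sides, which counts a hemimethylated dyad at 1 side of 2, went from 4.96% to 11.97%. IAPEz had the highest share of fully methylated dyads of the 4 amplicons at both passages.

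The IAP LTR amplicon, in the terminal repeat that carries the promoter of the same class of virus, held almost no fully methylated dyads at either passage. There were 2 of 11595 dyads at P1 and 11 of 17965 at P5. These counts are 0.0172% (0.00473 to 0.0629) and 0.0612% (0.0342 to 0.110), and their difference of 0.0440 percentage points had an interval of -0.00905 to 0.0940 (Fisher's exact test, adjusted p = 0.0988). Hemimethylated dyads were far more frequent here than fully methylated ones. The right side rose from 1.23% to 1.58% (log2 ratio 0.35, 0.06 to 0.64, Fisher's exact test, adjusted p = 0.0202). The left side rose from 1.47% to 2.11% (log2 ratio 0.52, 0.27 to 0.78, Fisher's exact test, adjusted p = 9.17e-05). Mean methylation was 1.37% and 1.90%. Counted in reads, neither side passed the threshold at this amplicon (adjusted p = 0.333 for right and 0.128 for left, Fisher's exact test). Both sides lay below the unconverted share of linker cytosines at both passages, which was 2.5% at P1 and 2.9% at P5. Corrected for linker conversion, both sides were negative at both passages. The corrected right side changed by -0.0448 percentage points, opposite to its rise as counted, and the corrected left side by 0.267.

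L1mdT started lower than IAPEz and gained mainly fully methylated dyads. These were 78 of 17116 at P1 and 384 of 21553 at P5. Their share rose from 0.456% (0.365 to 0.568) to 1.78% (1.61 to 1.97), a 3.91-fold change (3.07 to 4.98, Fisher's exact test, adjusted p = 2.02e-35). The gain per passage was 0.331 percentage points (0.281 to 0.383), or 0.185 at first and 0.515 at last with equal folds. Right-side dyads rose from 0.713% to 0.984% (log2 ratio 0.46, Fisher's exact test, adjusted p = 0.00685, and 0.325 counted in reads). Left-side dyads were at 0.935% and 1.08%, with an interval of the log2 ratio of -0.09 to 0.49 (Fisher's exact test, adjusted p = 0.184). Mean methylation was 1.28% at P1 and 2.81% at P5.

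MuERVL is the endogenous retrovirus whose LTR drives transcripts of the early cleavage embryo. It had 16 fully methylated dyads of 4156 at P1 and 86 of 4960 at P5. The share rose from 0.385% (0.237 to 0.624) to 1.73% (1.41 to 2.14), a 4.50-fold change (2.65 to 7.67, Fisher's exact test, adjusted p = 4.46e-10). The gain per passage was 0.337 percentage points (0.236 to 0.444), next to the 0.331 of L1mdT, or 0.176 at first and 0.544 at last with equal folds. Right-side dyads rose from 0.938% to 1.53% (log2 ratio 0.71, Fisher's exact test, adjusted p = 0.0186, and 0.333 counted in reads). Left-side dyads were at 1.01% and 1.41%, with an interval of the log2 ratio of -0.07 to 1.03 (Fisher's exact test, adjusted p = 0.0988). Mean methylation was 1.36% and 3.21%.

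**Figure D1:**
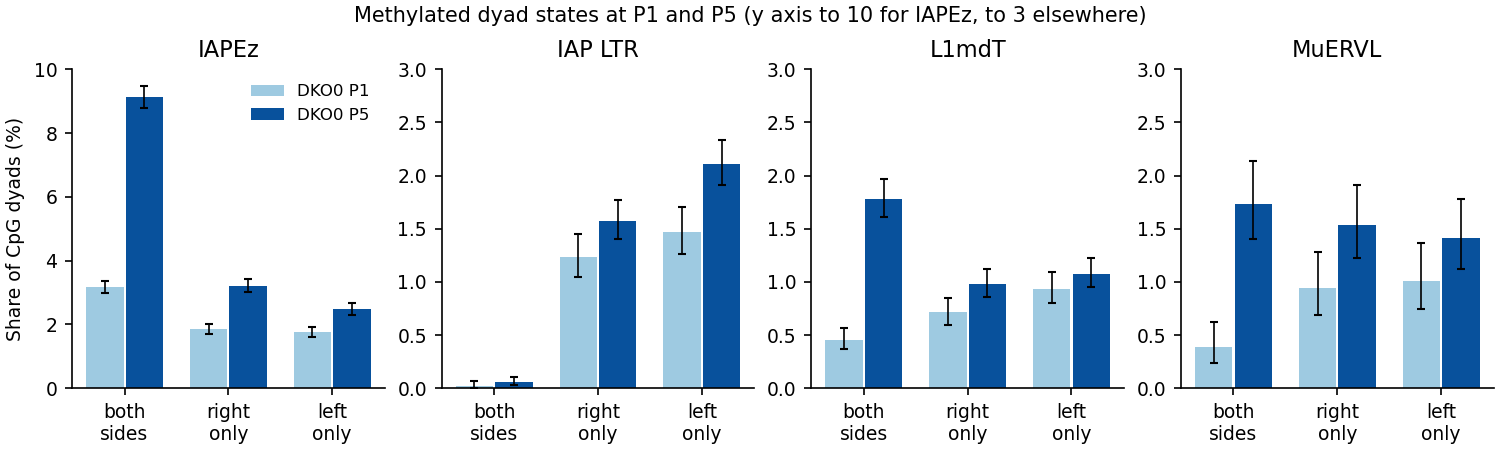
Share of scored CpG dyads (%) methylated on both sides, on the right side only and on the left side only, for DKO0 P1 (light) and P5 (dark) at each amplicon. Bars are single libraries, error bars are 95% Wilson intervals, and the IAPEz panel has its own y axis. Fully methylated dyads went from 3.16% to 9.13% at IAPEz and stayed under 0.1% at IAP LTR.

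The same method gave these values outside DKO0. In the TKOL libraries fully methylated dyads were at 2.55% for IAPEz, 0.0236% for IAP LTR, 0.206% for L1mdT and 0.173% for MuERVL. In wild-type V6.5 ESCs they were at 90.5%, 86.5%, 33.2% and 81.2%. IAP LTR thus gave reads with many fully methylated dyads in wild-type cells. Its hemimethylated dyads were at 2.50% in TKOL, beside 2.70% at P1 and 3.68% at P5.

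Most of the methylated sides gained between P1 and P5 sat in fully methylated dyads at 3 of the amplicons. The share was 85.1% at IAPEz, 86.5% at L1mdT and 73.1% at MuERVL. At IAP LTR it was 8.19%, and the remainder of its gain read as hemimethylated. Both sides there lay below the unconverted share of the linker at both passages. Corrected for linker conversion, its gain of hemimethylated dyads per passage was 0.0555 percentage points in place of 0.246. Summed over both sides, hemimethylated dyads were at 3.60% and then 5.68% for IAPEz, and at 2.70% and then 3.68% for IAP LTR. They were at 1.65% and then 2.06% for L1mdT, and at 1.95% and then 2.94% for MuERVL. Each of these 4 changes passed Fisher's exact test (adjusted over 4 tests, p = 2.52e-31, 5.87e-06, 0.00324 and 0.00315). Counted in reads, only that of IAPEz did (adjusted p = 3.61e-05, and 0.0657, 0.212 and 0.184 for the others, Fisher's exact test).

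The number of fully methylated dyads per hemimethylated dyad was compared next. At IAPEz it went from 0.878 (0.805 to 0.958) to 1.61 (1.51 to 1.71). As counted, without correction for the linker, full dyads outnumbered hemimethylated ones at P5 but not at P1. The log2 change was 0.87 (0.71 to 1.03, Fisher's exact test, adjusted over 4 tests, p = 3.26e-27). At L1mdT the ratio went from 0.277 to 0.865, a log2 change of 1.64 (1.23 to 2.06, Fisher's exact test, adjusted p = 6.17e-16). At MuERVL it went from 0.198 to 0.589, a log2 change of 1.58 (0.71 to 2.44, Fisher's exact test, adjusted p = 0.000300). When counted in reads, the MuERVL change did not pass (adjusted p = 0.0956, Fisher's exact test). At IAP LTR the ratio was 0.00639 and 0.0166, and the interval of the log2 change reached from -0.80 to 3.56 (Fisher's exact test, adjusted p = 0.245). The ratio holds unconverted cytosines in its hemimethylated part. Corrected for linker conversion, the IAPEz change turned direction (log2 -2.19), because corrected hemimethylated dyads were at 0.184% at P1 and 2.43% at P5. Corrected full dyads were at 3.13% at P1 and 9.05% at P5, above the hemimethylated ones at both passages. The corrected hemimethylated share at P1 cannot be told from none, as the Wilson intervals of both sides reached the linker rate there. No interval was computed for the corrected change, so its direction is not settled. At L1mdT and IAP LTR the corrected hemimethylated share was negative at both passages, and at MuERVL at P1. No corrected change of the ratio could therefore be had at these amplicons. At MuERVL at P5 corrected full and hemimethylated dyads were at 1.71% and 0.636%.

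**Figure D2:**
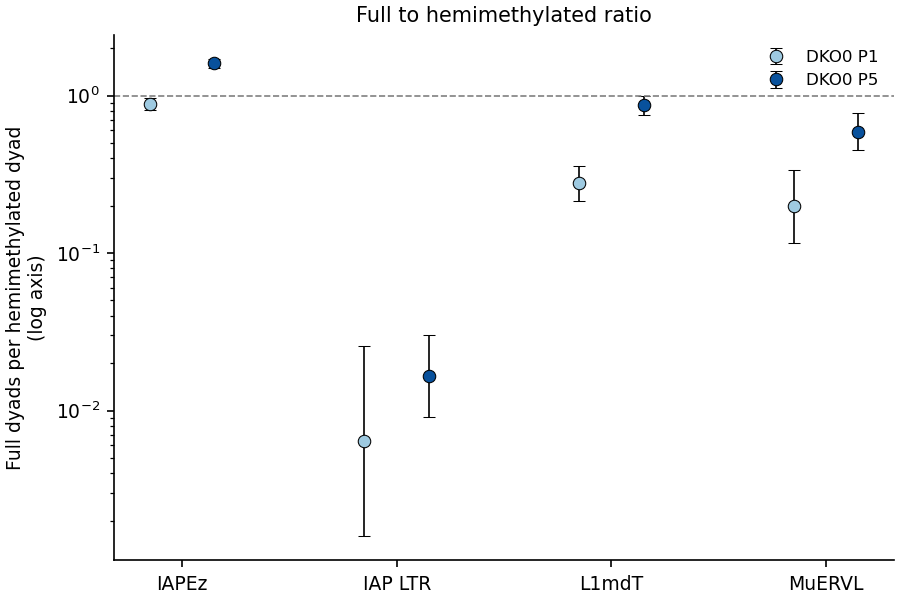
Fully methylated dyads per hemimethylated dyad (log axis) at P1 (light) and P5 (dark) for each amplicon, as single libraries with 95% intervals; the dashed line marks equal numbers. As counted, IAPEz crossed the line from 0.878 to 1.61, and L1mdT and MuERVL stayed below it at 0.865 and 0.589. Both IAP LTR values lay under 0.02. Corrected for linker conversion, full dyads exceeded hemimethylated ones at IAPEz at P1 (3.13% and 0.184%) and at MuERVL at P5 (1.71% and 0.636%).

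Another way to state it is how often the partner of a methylated side was methylated too. At IAPEz this share was 63.7% at P1 and 76.3% at P5. Corrected for linker conversion it was 97.1% and 88.2%, the opposite direction, with the same limit at P1 and no interval. At L1mdT it was 35.6% and 63.4%, and at MuERVL 28.3% and 54.1%. For these and IAP LTR no corrected value at P1 could be had. At IAP LTR it was 1.26% and 3.22%, beside totals of the right and left sides of 1.25% and 1.48% at P1 and of 1.64% and 2.17% at P5. If sides were methylated independently, at the same rate in all copies and molecules, the full share would be the product of the side totals. The observed full share was 12.8 times that product at IAPEz at P1 and 6.38 times at P5. At L1mdT it was 28.0 and 22.5 times, and at MuERVL 20.8 and 16.9 times. At IAP LTR it was 0.930 and 1.72 times, from 2 and 11 full dyads. The side totals were not corrected for failed conversion, and whether rates differ between copies or molecules was not tested.

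Unconverted cytosines in the linker give a rate of failed conversion for each library, since the linker carries unmethylated cytosines of known position. Whether the scored CpGs fail at the same rate was not tested, and the corrected values and squared rates assume that they do. At IAP LTR the correction put unmethylated dyads at 102% of all dyads at both passages, which exceeds the total. It also put them above the total at P1 for L1mdT (100.29%) and MuERVL (100.05%). Unconverted linker cytosines made up 1.8% at P1 and 1.9% at P5 for IAPEz, 2.5% and 2.9% for IAP LTR, 1.2% and 1.1% for L1mdT, and 1.2% at both passages for MuERVL. The rate was higher at P5 than at P1 for IAPEz and IAP LTR, lower for L1mdT and equal for MuERVL. A failed conversion at 1 side of an unmethylated dyad reads as hemimethylated, and a fully methylated call needs 2 such failures. The squared linker rate was 0.0324% and 0.0361% at IAPEz, and the full share was 97.6 and 253 times it. At L1mdT the full share was 31.6 and 147 times the squared rate, and at MuERVL 26.7 and 120 times. At IAP LTR it was 0.276 and 0.728 times, so its full dyads lay below the level of double failures at the linker rate.

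Hemimethylated dyads stood much closer to the linker. The share of right-only and left-only dyads minus the unconverted share was 0.0458 and -0.0470 percentage points at IAPEz at P1, and 1.31 and 0.568 at P5. At MuERVL it was -0.262 and -0.189 at P1, and 0.332 and 0.211 at P5. At L1mdT both sides lay below the linker at both passages, at -0.487 and -0.265 and then at -0.116 and -0.0236. At IAP LTR both lay below it too, at -1.27 and -1.03 and then at -1.32 and -0.790. The Wilson intervals reached the linker rate on both sides at IAPEz at P1, at L1mdT at P5 and at MuERVL at P1, and on the left side at MuERVL at P5. In L1mdT at P1 and IAP LTR at both passages fewer dyads read as methylated on 1 side than the linker rate alone would give. The part of failed conversion in the hemimethylated dyads was not tested.

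**Figure D3:**
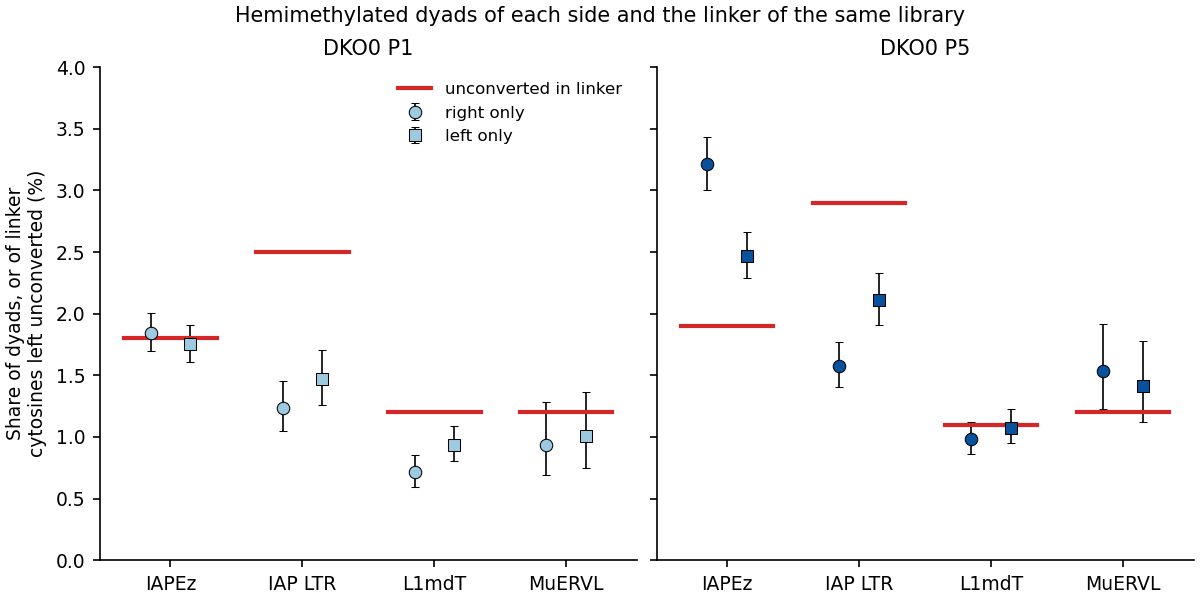
Share of dyads methylated on the right side only (circles) and on the left side only (squares), with 95% Wilson intervals, beside the share of linker cytosines left unconverted in the same library (red line), at P1 and P5. The values of both sides lay above the linker at P5 for IAPEz and MuERVL, and below it at both passages for IAP LTR and L1mdT. At P5 the intervals reached the linker on the left side for MuERVL and on both sides for L1mdT.

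The sides were then compared with each other. The table names them right and left, and which is the upper genomic strand is not given in the sources used here. At IAPEz the right side made up 51.3% of hemimethylated dyads at P1 and 56.6% at P5 (54.0 to 59.1). The P5 share departed from equal sides (exact binomial test, adjusted over 8 libraries, p = 4.06e-06), and the change between passages had a log2 value of 0.31 (0.08 to 0.53, Fisher's exact test, adjusted p = 0.0365). At IAP LTR the right side made up 45.7% at P1 and 42.7% at P5 (39.0 to 46.5), the latter below equal sides (exact binomial test, adjusted p = 0.000869). L1mdT was at 43.3% and 47.7%, and MuERVL at 48.1% and 52.1%, with no departure past the threshold (exact binomial tests, adjusted p = 0.0731 to 0.824). Counted in reads, none of these departures or changes passed (adjusted p = 0.412 for both P5 libraries by the exact binomial test).

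Between amplicons, the gain in percentage points and the fold change ordered them differently. The gain of full dyads at IAPEz exceeded that at L1mdT by 4.64 percentage points (4.19 to 5.09) and that at MuERVL by 4.62 (4.03 to 5.19). L1mdT and MuERVL differed by -0.0229 percentage points (-0.497 to 0.432). IAP LTR minus L1mdT was -1.28 points (-1.49 to -1.07). The fold changes were 2.89 at IAPEz, 3.55 at IAP LTR, 3.91 at L1mdT and 4.50 at MuERVL. None of the 6 pairs differed in their odds ratio of full dyads (Zelen's exact test, adjusted p = 0.343 to 1). The IAPEz and L1mdT log2 ratios, 1.53 and 1.97, differed by -0.44 with an interval that left out 0 (-0.80 to -0.07), while the unadjusted p of Zelen's exact test was 0.0571. The gain of hemimethylated dyads at IAPEz exceeded that at IAP LTR by 1.10 percentage points (0.564 to 1.64), that at L1mdT by 1.67 (1.23 to 2.11) and that at MuERVL by 1.09 (0.363 to 1.82). IAP LTR exceeded L1mdT by 0.573 points (0.0840 to 1.06). In the odds ratio of hemimethylated dyads, of the 6 pairs IAPEz and L1mdT alone passed the test, with a difference of 0.34 in the log2 ratio (0.10 to 0.58, Zelen's exact test, adjusted p = 0.0270, and 0.880 counted in reads).

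Where the amplicons lie was read from the genome. A search of mm9 for the primer pair and the cut site, with up to 2 mismatches per primer, found 1657 copies for IAPEz, 1708 for IAP LTR, 1936 for L1mdT and 757 for MuERVL. Copies were mostly intergenic, at 78.8%, 79.7%, 73.9% and 71.2%, and nearly all others were intronic. Of the IAPEz copies, 43.8% had an IAP LTR copy on the same strand within 1.5 kb, at a median distance of 1021 bases. The IAP LTR copies that were nearest to these IAPEz copies made up 42.4% of all IAP LTR copies. The 2 amplicons with the largest and the smallest gain of full dyads are thus neighbours in many elements.

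Presence of the scored CpGs in the copies was read by position, without an alignment. For L1mdT and MuERVL only copies of the same length as the stretch were compared. For IAPEz and IAP LTR bases were counted back from the cut site, so an insertion or deletion can make a kept CpG read as absent. In L1mdT each of the 5 CpGs was present in 95.7% to 97.7% of the 1320 copies that could be compared by position. In IAP LTR it was 63.3% to 95.8% of 1707 copies, with the fourth CpG lowest. In MuERVL it was 25.9% to 95% of 683 copies, with the second lowest. In IAPEz it was 42.1% to 65.0% of 1448 copies, where the length of the stretch also varies between copies. The shares therefore do not rank the amplicons by loss of CpGs. Which copies gave reads is not known from the table.

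Chromatin at the copies was described from the pooled peak lists of DKO0 and TKOL cells for H3K9me3, a histone mark of silent repeats, for Trim28, the corepressor that recruits the enzyme setting this mark, and for Uhrf1, the cofactor that brings Dnmt1 to hemimethylated DNA. Uhrf1 was read through a FLAG tag in cells tagged for it. The labels give no passage for these DKO0 cells, but the study's listing of its peak files marks the single replicates as P5 for H3K9me3 and Trim28 and as P3 for Uhrf1. In DKO0, an H3K9me3 peak overlapped 98.9% of IAPEz copies, 97.9% of IAP LTR copies and 96.5% of L1mdT copies, but 14.4% of MuERVL copies. In TKOL these shares were 98.3%, 97.3%, 96.8% and 31.0%. Trim28 peaks overlapped 87.1%, 89.2%, 81.7% and 31.0% in DKO0, and 92.2%, 89.1%, 87.1% and 47.0% in TKOL. In DKO0, Uhrf1 peaks overlapped 15.3% of IAPEz copies, 30.6% of IAP LTR copies, 1.39% of L1mdT copies and 0.264% of MuERVL copies. In TKOL, Uhrf1 peaks overlapped 8.69%, 34.5%, 0.258% and 0.396%. IAP LTR had the highest share with Uhrf1 and the lowest gain of full dyads, and MuERVL had the lowest share with H3K9me3 and a gain next to that of L1mdT. Whether these shares go with the methylation gain was not tested. The peak lists cover 3.21% (H3K9me3), 1.08% (Trim28) and 0.249% (Uhrf1) of the genome in DKO0. The shares depend on the strength of the peaks. With only peaks of a −log10 q of at least 5, H3K9me3 in DKO0 was left at 97.0% of IAPEz, 95.1% of IAP LTR, 78.8% of L1mdT and 0.793% of MuERVL copies. Trim28 was left at 79.4%, 79.8%, 33.0% and 1.06%. Uhrf1 was left at 0.724% of IAPEz copies and 3.57% of IAP LTR copies, and at no L1mdT or MuERVL copy. How reads from near-identical copies were placed was not tested.

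**Figure D4:**
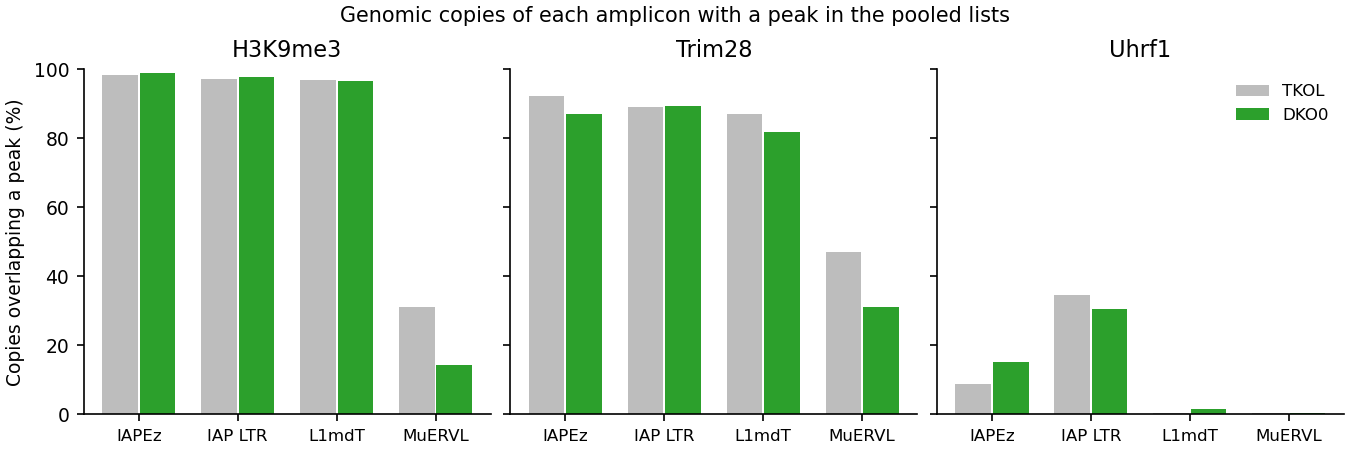
Share of the genomic copies of each amplicon (%) that overlap a peak by at least 1 base in the pooled peak lists of TKOL (grey) and DKO0 (green) cells, for H3K9me3, Trim28 and Uhrf1. H3K9me3 covered over 96% of copies except MuERVL, and Uhrf1 was most frequent at IAP LTR.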

How the data were processed

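Hairpin-bisulfite libraries of DKO0 ESCs at P1 and P5 were analysed, 1 per amplicon. The authors aligned reads to shortened references, kept those with a linker conversion of at least 80%, and deposited counts of dyads per state with the linker conversion rate as a fraction. The deposited ChIP-seq peak lists (mm9, BWA, MACS2, replicates merged) give a fold ratio and a −log10 q per peak. The table has 24 lines. For 5 of them no sample label was found, and they were set aside together with 1 column of values. Members, lists and tests were chosen with earlier results of these data known.

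Shares were compared with Fisher's exact test, sides with the exact binomial test and amplicons with Zelen's exact test (two-sided, Benjamini-Hochberg, threshold 0.05, scipy 1.17.1 in Python 3.11.15). Intervals are Wilson, Newcombe and log-scale intervals at 95%. Alternatives divided counts by the dyads per read, added 0.5 dyads, or corrected for linker conversion. Amplicon copies were found in mm9 (NCBIM37, GENCODE vM1), with primers up to 200 bases apart and the first cut site within 400 bases. The tests and the search were tested on simulated data. The simulated dyads were independent, so dyads grouped in reads and PCR copies were not covered. Genes were not named, as none was measured.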

Additional observations from a re-analysis of the deposited data

Results flagged for a closer look

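The change of hemimethylated dyads from P1 to P5 differed between 2 amplicons by a test of the difference itself. The log2 ratio was 0.66 at IAPEz and 0.32 at L1mdT, a difference of 0.34 (0.10 to 0.58, Zelen's exact test, adjusted p = 0.0270). It was 0.34 with counts divided by the dyads per read, where it did not pass the threshold (Zelen's exact test, adjusted p = 0.880).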

How the results depend on the processing

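Where an alternative had no test, a value counted as kept if it stayed in the 95% interval of the reported one. Adding 0.5 dyads to each cell, which was not tested, kept all 16 log2 ratios so, with full dyads at IAP LTR at 1.57 in place of 1.83. Counted in reads, 28 results kept their direction and their side of the threshold and 11 no longer passed it. Those 11, as log2 values, were the left side at IAPEz (0.48), the right and left sides (0.37 and 0.53) and the unmethylated dyads (-0.0151) at IAP LTR, the right side at L1mdT (0.48) and at MuERVL (0.67), the side change at IAPEz (0.31), the full to hemimethylated ratio at MuERVL (1.61) and the hemimethylated change of IAPEz minus L1mdT (0.34), and as right shares at P5 42.6% at IAP LTR and 56.5% at IAPEz. The full dyads of IAP LTR at P1 rounded to 0 reads and gave no log2 value. Full dyads at IAPEz, L1mdT and MuERVL still passed in reads (Fisher's exact test, adjusted p = 2.20e-29, 9.09e-08 and 0.00603). Beside the 11, the summed hemimethylated changes at IAP LTR, L1mdT and MuERVL also no longer passed (adjusted p = 0.0657, 0.212 and 0.184, Fisher's exact test).

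Correction for linker conversion kept 14 results by that interval. Of these, 2 moved by over 1.5 times, the gain per passage of hemimethylated dyads at L1mdT (0.103 to 0.165 percentage points) and of full dyads at IAP LTR (0.0110 to 0.00626). It moved the IAPEz right and left log2 ratios to 3.52 and 4.22, the unmethylated change at IAP LTR to -0.00349 and its hemimethylated gain per passage to 0.0555 percentage points, and reversed the ratio change at IAPEz (-2.19), where hemimethylated dyads at P1 came close to 0 after correction. Corrected shares below 0 gave no log2 value. Among these, the right side at IAP LTR changed by -0.0448 percentage points after correction, opposite to its rise as counted. With right and left summed and counted in dyads, the hemimethylated change passed where the left side alone had not, at L1mdT (0.32) and MuERVL (0.59). Equal steps on the log scale put the first step of full dyads at 0.959 percentage points for IAPEz, 0.185 for L1mdT and 0.176 for MuERVL. Primers without mismatch found 1009 IAPEz copies and 278 IAP LTR copies. The shares of copies with a peak left their 95% Wilson interval in 24 of 24 cases with the stricter q and in 23 of 24 with 50% of the copy covered. That interval is narrow for shares near 100%.

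No paired analysis was possible because each passage and amplicon has 1 library, and leaving out a replicate gave no comparison. Passage and library preparation cannot be told apart.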
